A study of Homo sapiens with 6 samples.

Results

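The genes described here are the BCL2 family, the caspases and the death receptors with their adaptors, the machinery of apoptosis, in SW480 cells. A list of 38 genes was matched by symbol to the deposited table of 22258 symbols. A row was found for 37 of them, and BCL2A1 had none, so no level of it is given. All 37 passed the filter on low values and were among the 15496 genes tested, with about 12 to 10506 reads per gene and sample. SW480 cells are an established line from a human colon tumour. By their labels, 3 samples belong to a group with the genotype ALDH1B1 KD (knockdown; replicates 4, 5 and 6) and 3 to a control group, titled SCR and CONTROL with the genotype WT (replicates 4, 5 and 6), and no treatment is given for either. How the knockdown was made, and whether a group is 1 clone, is not given in the sources used here. Nothing says that the replicates came from separate cultures, so p-values cover sample-to-sample spread that may be technical only.

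Apoptosis starts along a pair of routes. In the mitochondrial route, BH3-only proteins sense stress and either block the anti-apoptotic proteins BCL2, BCL-XL and MCL1 or switch on the effectors BAX and BAK, which open the outer mitochondrial membrane. Cytochrome c then leaves the mitochondrion and assembles APAF1 and caspase-9 into the apoptosome. In the receptor route, ligands of the TNF family gather FADD and caspase-8 at death receptors, and BID links this route to mitochondria. ALDH1B1, whose knockdown is compared, is an aldehyde dehydrogenase of the mitochondrial matrix.

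Sequencing depth ranged between about 20320000 and 28540000 reads. Levels are given in RPM, reads scaled by the authors to a common library total of 1e+06, and differences as the log2 fold change, KD minus SCR, with the standard error from limma. ALDH1B1 had 20.0, 20.4 and 23.2 RPM in KD samples, against 34.1, 39.6 and 36.7 RPM in SCR samples (log2 fold change -0.80; adjusted p from limma 2.37e-07). A two-sided exact permutation test on this gene gave p = 0.1, and no smaller p can be had from 3 samples a group. The epithelial keratin genes KRT8 and KRT18 averaged 2743 and 2131 RPM in KD samples and 2702 and 1881 RPM in SCR samples, and neither passed the threshold of 0.05 (limma adjusted p = 0.863 and 0.0969). Other epithelial markers did: CDH1, the adhesion protein E-cadherin, averaged 50.96 ± 4.97 RPM in KD samples and 13.1 ± 2.92 RPM in SCR samples (SD, n = 3), and rose by 1.98. VIL1 rose by 1.90 and EPCAM by 0.90, while the intestinal factor CDX2 fell by 0.76. EPCAM lay among genes that were also higher: of 37 tested genes within 5 Mb, 26 rose and 1 fell (median 0.49). KRT19 did not pass (limma adjusted p = 0.658). In all, 4 of the 7 tested epithelial markers passed (57.1%), against 41.8% of all tested genes. The part of these marker differences in the results on the members was not tested. Fibroblast markers summed to 5.37 to 7.03 RPM in KD samples and 4.18 to 5.74 in SCR samples, with 6 of 9 without a row. Leukocyte markers summed to 1.58 to 2.43 RPM in KD samples and 2.35 to 3.24 in SCR samples, with 4 of 9 without a row, among them PTPRC. CD68, the only leukocyte marker tested, had about 5 to 32 reads per sample. It averaged 0.311 RPM in KD samples and 1.17 RPM in SCR samples, and fell by 1.93 (limma adjusted p = 0.000647). Endothelial markers summed to 0.497 to 0.688 RPM in KD samples and 0.425 to 0.617 in SCR samples, with 3 of 4 without a row. Mitochondrially encoded mRNAs took 6.34%, 6.43% and 6.38% of reads in KD samples, against 4.31%, 3.67% and 3.60% in SCR samples. Rescaling without them gave 9 members that rose and 10 that fell. Of all tested genes 4540 then rose and 2871 fell, against 3508 and 2972 without this rescaling. SCR replicate 6 had the lowest median-of-ratios scaling factor, 0.937, against 0.984 to 1.04 for the other samples. Without SCR replicate 6, 6 members rose and 12 fell, and of all tested genes 3057 rose and 3738 fell. In bulk samples, fewer cells of a type and less RNA per cell cannot be told apart.

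The machinery of apoptosis moved in both directions by small amounts. The effector genes BAK1 and BOK, the linker BID, the receptor gene TNFRSF1A, the caspase genes CASP4 and CASP9, and BIK, BCL2L13, CYCS and FADD were lower in KD samples. The BH3-only genes BCL2L11, BBC3 and BMF, the survival gene MCL1, the caspase-8 regulator CFLAR, and CASP2 and HTRA2 were higher. In all, 7 members rose and 10 fell (adjusted p under 0.05), which is 17 of 37 or 45.9%, against 41.8% of all tested genes. Of all tested genes 22.6% rose and 19.2% fell. The groups did not overlap for 21 members, or 56.8%, against 51.0% of tested genes. The members' median log2 fold change was -0.04, against 0.000668 over all tested genes, and the median absolute value was 0.22, against 0.24. No member reached 1 log2 unit in size, which 5.96% of tested genes did. The number of members that fell depended on single samples, with 5 without KD replicate 5 and 6 without SCR replicate 5. Over all tested genes the number that fell dropped too, from 2972 to 2025 and 2126. Whichever sample was left out, 6 or 7 members rose, and 2904 to 3455 of all tested genes.

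**Figure D1:**
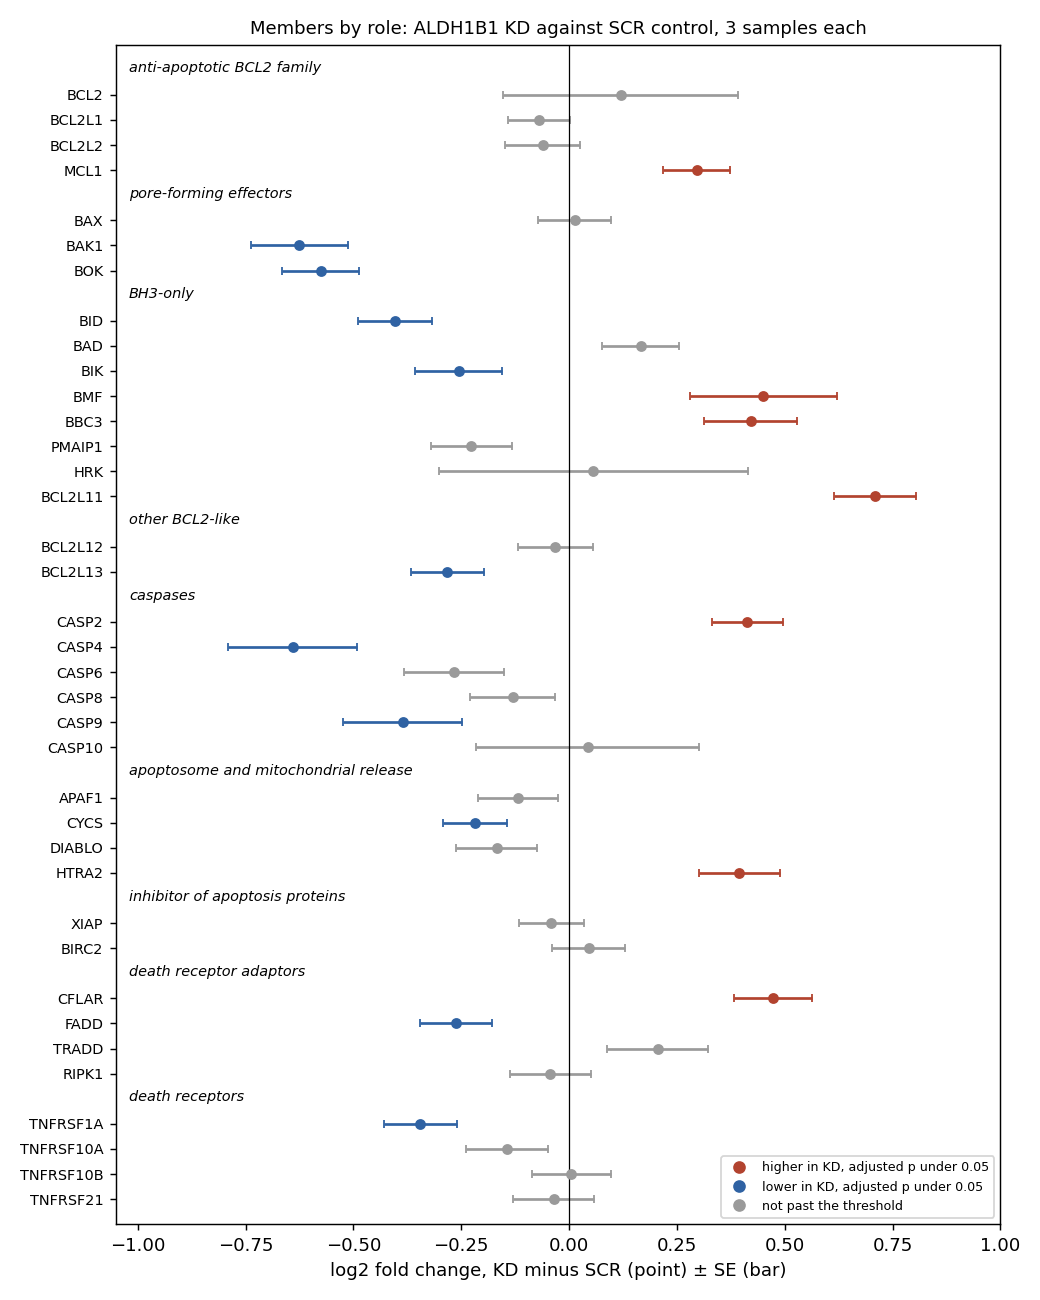
Log2 fold change (horizontal axis, KD minus SCR, 3 samples each) of the 37 tested members, grouped by role, with the limma standard error as a bar. Points run from -0.64 for CASP4 to 0.71 for BCL2L11, and 20 of the 37 are grey because they did not pass the threshold.

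Among the anti-apoptotic genes only MCL1 passed the threshold. MCL1 encodes a short-lived protein that holds BAK and BIM in check (table position chromosome 1, 150547032 to 150552067, in coordinates whose build is not named). It had 187.8, 206 and 214 RPM in KD samples, against 174.5, 170.0 and 150.9 RPM in SCR samples. Every KD sample was above every SCR sample. MCL1 rose by 0.30 on the log2 scale (SE 0.0781, adjusted p = 0.00354), a call lost without a variance trend (adjusted p = 0.0502). BCL2L1, which encodes BCL-XL, had 360.3, 339 and 364 RPM in KD samples and 368, 380.3 and 367 RPM in SCR samples. These groups did not overlap, yet the log2 fold change of -0.07 (95% interval -0.22 to 0.08, adjusted p = 0.455) missed the threshold. BCL2 was low, with 1.42, 1.42 and 1.34 RPM in KD samples and 1.01, 1.75 and 1.19 RPM in SCR samples, and its interval was wide (-0.44 to 0.68). BCL2L2, which encodes BCL-W, averaged 32.5 ± 1.70 RPM in KD samples and 34.0 ± 2.38 RPM in SCR samples (SD, n = 3), with an interval of -0.24 to 0.12. Its reads are uncertain, because the read-through gene BCL2L2-PABPN1 overlaps it on the same strand, and PPP1R3E, which rose by 0.60, overlaps it on the other strand.

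Of the pore-forming effectors, BAK1 and BOK fell and BAX did not pass the threshold. BAK1 encodes the effector that sits in the outer mitochondrial membrane (chromosome 6, 33540329 to 33548020). It had 9.99, 10.3 and 12.9 RPM in KD samples, against 16.6, 18.2 and 16.1 RPM in SCR samples. The log2 fold change was -0.63 (SE 0.113, adjusted p = 9.16e-05), which puts the KD level at 64.8% of the SCR level. BOK encodes an effector that is regulated largely by its turnover (chromosome 2, 242498136 to 242513547). Its level was 20.4, 20.8 and 21.9 RPM in KD samples, against 31.7, 32.5 and 29.9 RPM in SCR samples. For both genes the groups lay well apart, and for BOK the log2 fold change was -0.58 (SE 0.0885, adjusted p = 1.22e-05). BAX, the effector that moves from cytosol to mitochondria, had 44.6, 42.7 and 49.95 RPM in KD samples and 44.0, 47.8 and 44.1 RPM in SCR samples. Its values overlapped, and the 95% interval of its log2 fold change was -0.16 to 0.19.

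Of the 8 BH3-only genes, BCL2L11, BBC3 and BMF rose, BID and BIK fell, and 3 did not pass. BCL2L11 encodes BIM, which binds every anti-apoptotic protein of the family and can activate BAX and BAK directly (chromosome 2, 111876955 to 111926025). It had 26.9, 29.1 and 30.7 RPM in KD samples, against 17.9, 18.7 and 16.4 RPM in SCR samples. This was the largest rise among the members, and the log2 fold change was 0.71 (SE 0.0944, adjusted p = 1.74e-06). BBC3, which encodes PUMA, a potent killer BH3-only protein (chromosome 19, 47724081 to 47736024), had 17.5, 15.97 and 16.8 RPM in KD samples, against 13.7, 13.1 and 10.9 RPM in SCR samples. It rose by 0.42 (SE 0.108, adjusted p = 0.00281), and the groups did not overlap. BMF, a BH3-only protein linked to the cytoskeleton and to loss of attachment, had 5.79, 5.89 and 6.65 RPM in KD samples, against 5.74, 4.74 and 3.27 RPM in SCR samples. It rose by 0.45 (SE 0.170, adjusted p = 0.0353), but the highest SCR sample almost met the lowest KD sample. The BMF call was lost without any KD replicate (adjusted p = 0.0521, 0.0779 and 0.100025 without replicates 4, 5 and 6) or without SCR replicate 6 (0.217), where the log2 fold change was 0.23. Quantile normalization (0.174), no filter (0.0933) and no variance trend (0.126) also ended it.

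BID is cut by caspase-8 into a form that acts on mitochondria (chromosome 22, 18216906 to 18257537). It had 27.7, 29.4 and 29.9 RPM in KD samples, against 39.8, 39.3 and 35.9 RPM in SCR samples. BID fell by 0.40 on the log2 scale (SE 0.0853, adjusted p = 0.000492), with a gap between the groups. BIK, a BH3-only protein of the endoplasmic reticulum, had 13.1, 12.7 and 13.6 RPM in KD samples, against 15.6, 16.3 and 15.04 RPM in SCR samples. The groups did not overlap, and the log2 fold change was -0.26 (SE 0.101, adjusted p = 0.0443). That call was lost when any sample but SCR replicate 6 was left out (adjusted p = 0.0654 to 0.143), and with no filter on low values (0.0503). PMAIP1, which encodes NOXA, the partner that drives MCL1 to degradation, had 26.4, 26.2 and 21.7 RPM in KD samples, against 28.8, 27.6 and 30.2 RPM in SCR samples. Its log2 fold change of -0.23 missed the threshold (adjusted p = 0.0562), and passed it without KD replicate 4 (0.0486). A stricter filter (0.0467) and a robust prior (0.0469) also brought PMAIP1 past it. BAD, which is held inactive by phosphorylation, had 25.7, 25.6 and 24.1 RPM in KD samples and 21.8, 22.9 and 22.5 RPM in SCR samples (adjusted p = 0.137). The groups of BAD did not overlap, and with scaling to nuclear totals it passed, upward (adjusted p = 0.0230). HRK was near the lower limit of the tested range, with 0.807 to 1.22 RPM in KD samples and 0.510 to 1.28 RPM in SCR samples. Of the BCL2-like genes with less settled roles, BCL2L13, a mitochondrial outer membrane protein that also acts in mitophagy, had 37.7, 38.9 and 43.5 RPM in KD samples, against 49.4, 50.98 and 45.5 RPM in SCR samples. BCL2L13 fell by 0.28 (adjusted p = 0.00927), which was not kept without KD replicate 4 or 5 (adjusted p = 0.0557 and 0.0506) or without a variance trend (0.0530). BCL2L12 did not pass (interval -0.21 to 0.15).

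Promoter letters of the rising BH3-only genes and of the falling effectors are shown so that the start regions of genes that moved in opposite directions can be set side by side. Each is the 250 bases before a RefSeq gene start (GRCh38.p14), 5′ to 3′ on the gene's strand, and capitals mark the motifs searched. They are BCL2L11 at chr2:111120664-111120913 (plus strand), BBC3 at chr19:47232668-47232917 (minus), BMF at chr15:40108880-40109129 (minus), BAK1 at chr6:33580277-33580526 (minus) and BOK at chr2:241558495-241558744 (plus). RefSeq lists another BMF start further downstream, whose window held none of the motifs.
BCL2L11: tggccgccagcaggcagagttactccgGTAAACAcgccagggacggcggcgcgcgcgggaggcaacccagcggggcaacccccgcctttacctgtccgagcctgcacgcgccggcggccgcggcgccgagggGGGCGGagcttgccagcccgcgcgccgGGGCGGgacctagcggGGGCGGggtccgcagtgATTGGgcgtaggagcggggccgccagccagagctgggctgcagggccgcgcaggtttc
BBC3: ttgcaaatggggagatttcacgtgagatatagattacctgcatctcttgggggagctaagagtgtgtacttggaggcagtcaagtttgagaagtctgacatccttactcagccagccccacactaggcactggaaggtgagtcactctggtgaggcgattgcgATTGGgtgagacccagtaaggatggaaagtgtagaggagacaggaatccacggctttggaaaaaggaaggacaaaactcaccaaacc
BMF: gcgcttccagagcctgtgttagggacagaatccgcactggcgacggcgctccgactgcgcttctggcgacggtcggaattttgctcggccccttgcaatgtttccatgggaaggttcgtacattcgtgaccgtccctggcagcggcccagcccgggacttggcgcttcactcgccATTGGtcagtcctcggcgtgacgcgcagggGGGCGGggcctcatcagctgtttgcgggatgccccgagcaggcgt
BAK1: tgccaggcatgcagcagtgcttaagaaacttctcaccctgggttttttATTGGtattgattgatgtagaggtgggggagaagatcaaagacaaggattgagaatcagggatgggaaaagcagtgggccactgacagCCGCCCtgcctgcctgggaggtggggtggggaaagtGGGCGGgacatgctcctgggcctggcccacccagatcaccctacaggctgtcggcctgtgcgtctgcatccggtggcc
BOK: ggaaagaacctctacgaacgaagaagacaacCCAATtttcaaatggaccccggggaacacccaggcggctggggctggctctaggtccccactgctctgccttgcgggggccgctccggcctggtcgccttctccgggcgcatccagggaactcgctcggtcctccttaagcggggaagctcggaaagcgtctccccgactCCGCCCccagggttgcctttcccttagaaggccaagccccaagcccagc

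The motifs searched on both strands were the FOXO site (GTAAACA), the cyclic AMP response element (TGACGTCA), the GC box (GGGCGG), the CCAAT box (CCAAT) and the TATA box (TATAAA). The BCL2L11 window held the FOXO site, whose first base lies at -223 from the start, 3 GC boxes and 1 CCAAT box. The BBC3 window held 1 CCAAT box and no other motif searched, and the BMF and BOK windows held 1 GC box and 1 CCAAT box each. In BAK1, 2 GC boxes and 1 CCAAT box were found. Over all 35116 windows of this length, the FOXO letters were present in 2.98%, the GC box in 42.6% and the CCAAT box in 32.0%. Of the 38 listed genes 31 had windows, 57 in all, with BCL2A1 among them, and 1.75% of these held the FOXO letters, 64.9% the GC box and 31.6% the CCAAT box. Windows of 1 gene can overlap and are not independent. Of these 57 windows 1.75% held the response element and 7.02% the TATA box, against 1.65% and 10.7% of all windows. Median GC content was 62.8% in these windows and 58.0% in all windows. BIK, BCL2L2, MCL1, CASP10, TRADD, TNFRSF10A and TNFRSF10B had no entry in the promoter table used here.

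**Figure D2:**
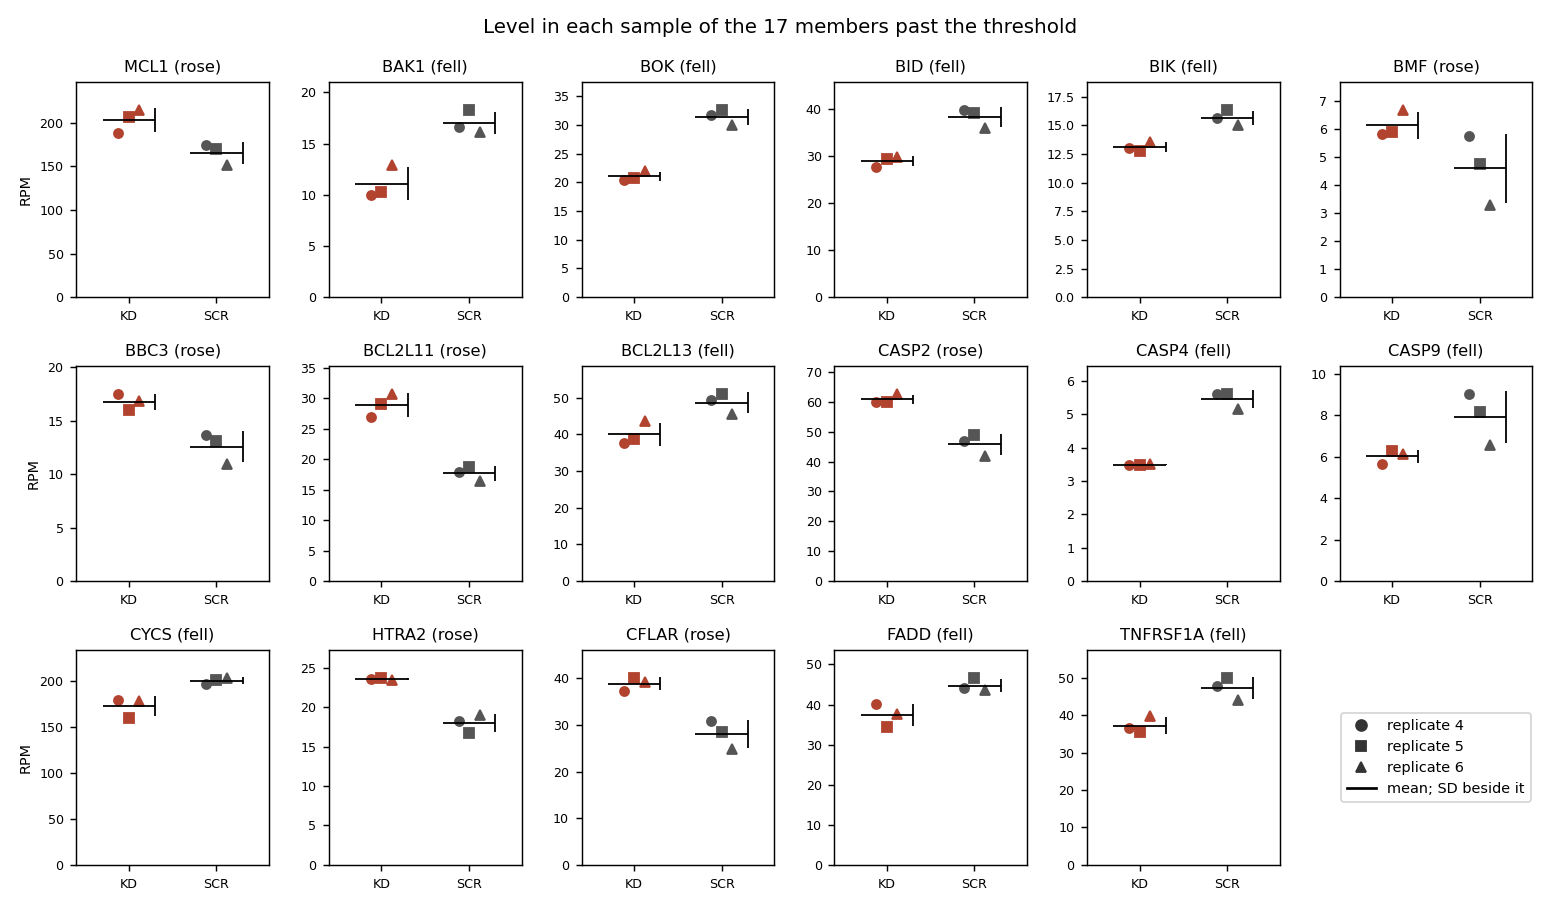
Level in RPM (vertical axes, from 0) of the 17 members past the threshold in each KD and SCR sample; symbols mark the replicate, lines the mean and the SD of 3 samples. The groups do not overlap in any of the 17 panels, with the narrowest gap for BMF, where the lowest KD sample had 5.79 RPM and the highest SCR sample 5.74 RPM.

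Among the 6 caspase genes CASP2 rose, CASP4 and CASP9 fell, and CASP6, CASP8 and CASP10 did not pass. CASP2 encodes an initiator caspase that responds to failed cell division and DNA damage (chromosome 7, 142985308 to 143004790). It had 59.8, 60.1 and 62.6 RPM in KD samples, against 46.7, 48.8 and 41.7 RPM in SCR samples, the log2 fold change being 0.41 (SE 0.0816, adjusted p = 0.000240). CASP4, an inflammatory caspase that binds bacterial lipopolysaccharide and triggers pyroptosis, had 3.47, 3.49 and 3.52 RPM in KD samples, against 5.60, 5.60 and 5.14 RPM in SCR samples. It had the most negative log2 fold change of the members, -0.64 (SE 0.150, adjusted p = 0.00129), and the KD samples lay close together. CASP9, the caspase of the apoptosome, had 5.65, 6.29 and 6.12 RPM in KD samples, against 9.03, 8.16 and 6.58 RPM in SCR samples. The log2 fold change of CASP9 was -0.39 (SE 0.137, adjusted p = 0.0263). This call did not hold without KD replicate 4 or 5 (adjusted p = 0.0877 and 0.0509) or SCR replicate 4 or 5 (0.1495 and 0.0782), nor with no filter (0.0511) or no variance trend (0.0567). CASP6, an executioner caspase that cuts lamins, had 9.50, 10.02 and 9.67 RPM in KD samples, against 13.0, 11.998 and 10.3 RPM in SCR samples. Its groups did not overlap, and its adjusted p of 0.0658 was 0.00937 without SCR replicate 6. With all samples, CASP6 also passed under median-of-ratios scaling (0.0257) and quantile normalization (0.00421). The initiators of the receptor route, CASP8 and CASP10, had intervals of -0.33 to 0.07 and -0.49 to 0.58, and CASP10 had only 1.28 to 1.95 RPM in KD samples and 1.27 to 2.18 RPM in SCR samples.

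Of the proteins that mitochondria release and the apoptosome scaffold, CYCS fell and HTRA2 rose. CYCS, which encodes cytochrome c, had 179, 159.8 and 177.7 RPM in KD samples, against 196, 201 and 203 RPM in SCR samples. The groups did not overlap, and the log2 fold change was -0.22 (SE 0.0736, adjusted p = 0.0197), a call lost without KD replicate 5 or SCR replicate 5 (adjusted p = 0.1395 and 0.0549) or without a variance trend (0.0769). CYCS has many processed pseudogenes, so its reads are uncertain. HTRA2, a protease that antagonises XIAP once released (chromosome 2, 74756504 to 74760473), had 23.6, 23.7 and 23.5 RPM in KD samples, against 18.2, 16.7 and 19.0 RPM in SCR samples. HTRA2 rose by 0.39 (SE 0.0935, adjusted p = 0.00143). It overlaps AUP1 and LOXL3 on the opposite strand, which also rose (0.34 and 0.78), and whether counting used the strand is not given in the sources used here. APAF1 had an interval of -0.31 to 0.07. DIABLO, which encodes the XIAP antagonist SMAC, had an adjusted p of 0.156. It was 0.0439 without SCR replicate 6 and 0.0469 with median-of-ratios scaling. The inhibitors of apoptosis among the members, XIAP and BIRC2, did not pass. Outside the members, BIRC6 and NAIP rose by 0.28 and 0.59 (limma adjusted p = 0.00424 and 0.000440). BIRC3 and BIRC5 did not pass (0.0601 and 0.783). Tested genes within 5 Mb of BIRC6 had a median log2 fold change of 0.39. XIAP, which blocks caspases directly, averaged 80.5 ± 2.21 RPM in KD samples and 82.8 ± 2.81 RPM in SCR samples (SD, n = 3; interval -0.19 to 0.11). BIRC2, a ubiquitin ligase of the TNF receptor complex, averaged 44.9 ± 3.33 RPM in KD samples and 43.5 ± 2.24 RPM in SCR samples (interval -0.13 to 0.22).

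In the receptor route CFLAR rose, while FADD and TNFRSF1A fell. CFLAR encodes FLIP, a caspase-8 relative that limits its activation at receptors (chromosome 2, 201980827 to 202041411). It had 37.3, 40.05 and 39.2 RPM in KD samples, against 30.9, 28.5 and 24.9 RPM in SCR samples. The groups lay apart, and the log2 fold change was 0.47 (SE 0.0907, adjusted p = 0.000180). FADD, the adaptor that recruits caspase-8, had 40.1, 34.5 and 37.6 RPM in KD samples, against 44.0, 46.6 and 43.6 RPM in SCR samples. Its log2 fold change was -0.26 (SE 0.0842, adjusted p = 0.0145), and the call was lost without KD replicate 5 or SCR replicate 5 (adjusted p = 0.110 and 0.0639) or without a variance trend (0.0561). TNFRSF1A, the main receptor for TNF (chromosome 12, 6437923 to 6451281), had 36.5, 35.4 and 39.7 RPM in KD samples, against 47.8, 49.9 and 43.97 RPM in SCR samples. By its log2 fold change, TNFRSF1A stood at 78.8% of the SCR level, without overlap (log2 fold change -0.34, SE 0.0844, adjusted p = 0.00192). TNFRSF10A and TNFRSF10B, the receptors for TRAIL, did not pass. TNFRSF10A averaged 19.96 ± 1.16 RPM in KD samples and 22.0 ± 1.19 RPM in SCR samples (SD, n = 3; interval -0.34 to 0.05). TNFRSF10B averaged 68.4 ± 6.20 RPM in KD samples and 68.3 ± 8.41 RPM in SCR samples (SD, n = 3; interval -0.18 to 0.19). TNFRSF21, a death receptor best known in neurons, had an interval of -0.23 to 0.16. The adaptors TRADD and RIPK1, which link TNF receptors to survival signals, had intervals of -0.04 to 0.45 and -0.24 to 0.15. With scaling to nuclear totals TRADD passed (adjusted p = 0.0375). FBXL8, which rose by 0.68, overlaps TRADD on the opposite strand, so the reads of TRADD are uncertain.

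Position on the chromosome differed among the members that rose. BCL2L11, CASP2 and HTRA2 lay among genes that were also higher in KD samples. For BCL2L11, the median log2 fold change of 61 tested genes within 5 Mb was 0.61, and 47 of them rose and 0 fell. The 47 neighbours of CASP2 had a median of 0.48, with 33 that rose and 0 that fell. The 70 neighbours of HTRA2 had a median of 0.49, with 56 that rose and 0 that fell. Taken relative to the neighbours' median in each sample, BCL2L11 had -0.02, 0.06 and 0.18 log2 units in KD samples and -0.03, 0.03 and -0.01 in SCR samples. CASP2 had -0.10, 0.00 and -0.09 in KD samples and -0.02, 0.03 and 0.00 in SCR samples, and HTRA2 had -0.09, -0.03 and -0.13 in KD samples and -0.01, -0.16 and 0.18 in SCR samples. On this scale the groups overlapped for all 3 genes. For MCL1, BBC3, BMF and CFLAR the neighbours' medians were 0.04, 0.09, -0.11 and -0.15, and CFLAR relative to its neighbours had 0.53, 0.69 and 0.65 in KD samples, against 0.09, -0.02 and -0.07 in SCR samples. Neighbours of the 10 members that fell had medians of -0.10 (CASP4) to 0.16 (CYCS).

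**Figure D3:**
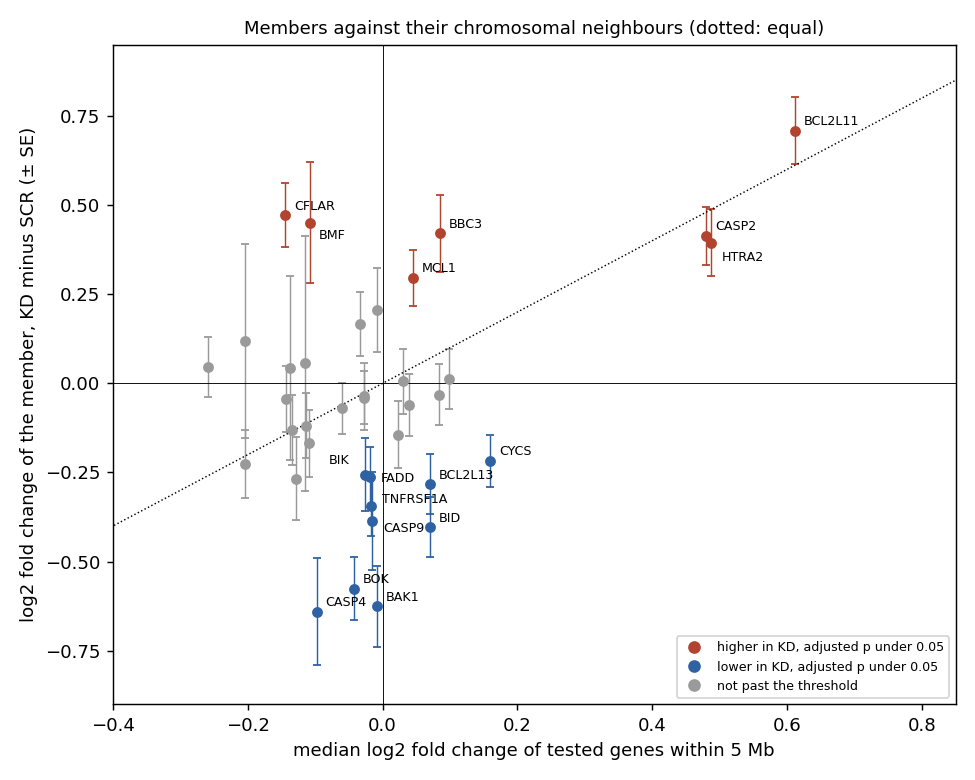
Log2 fold change of each member (vertical axis, KD minus SCR, bar for SE) against the median log2 fold change of tested genes within 5 Mb (horizontal axis). BCL2L11, CASP2 and HTRA2 lie on the right near the dotted line of equal values, while the other 4 that rose lie above it with neighbours' medians between -0.15 and 0.09.

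Other genes of the cell death pathways passed the test about as often as all tested genes did. From a list of 75, 64 were tested, and 27 of these passed (42.2%, against 41.8% of all tested genes), 11 upward and 16 downward; the median over the list was -0.10 log2 units. TNF, the ligand of TNFRSF1A, had 3.28, 3.39 and 3.44 RPM in KD samples, against 1.29, 1.33 and 1.32 RPM in SCR samples, and rose by 1.36 (SE 0.205, adjusted p = 9.45e-06). TNF had only about 28 to 90 reads per sample. Its log2 fold change ran from 0.92 to 1.41 under the alternatives that tested it, all of which called it. SEPT4, whose ARTS product binds XIAP, averaged 22.9 ± 0.691 RPM in KD samples and 9.55 ± 1.19 RPM in SCR samples (SD, n = 3), a rise of 1.27 (adjusted p = 1.21e-09). TNFRSF25, a death receptor for the ligand TL1A, rose by 0.73 and NAIP, an inhibitor of apoptosis that also serves an inflammasome, by 0.59, although NAIP has near-identical copies that may share reads. FAIM2, an inhibitor of FAS signalling, rose by 2.16 from low counts, with 1.03 to 1.99 RPM in KD samples and 0.237 to 0.552 RPM in SCR samples. Its log2 fold change depended on the setting, from 0.92 with a pseudocount of 1 to 2.50 without SCR replicate 6, and every alternative that tested it called it. TNFRSF10D, a decoy receptor for TRAIL, averaged 32.97 ± 0.186 RPM in KD samples and 49.8 ± 2.89 RPM in SCR samples (SD, n = 3), a log2 fold change of -0.59 (adjusted p = 2.86e-06). TNFRSF11B, which encodes osteoprotegerin, a soluble receptor that also binds TRAIL, fell by 0.66 (adjusted p = 2.55e-05), and VDAC2, the mitochondrial channel that binds BAK, by 0.43 (adjusted p = 0.000710). The neighbours' medians of these 8 genes lay between -0.18 and 0.11.

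A list of 10 transcription factors and stress genes set beside the BH3-only genes moved in both directions. Of these 2 rose and 4 fell, where 22.6% and 19.2% of all tested genes did. A place on the list does not mean that a gene acts on BH3-only genes. FOXO1 and FOXO3, forkhead factors known to induce BIM and PUMA, were lower. FOXO3 had 47.0, 45.9 and 48.3 RPM in KD samples, against 70.4, 83.8 and 74.0 RPM in SCR samples, the log2 fold change being -0.69 (SE 0.0816, adjusted p = 3.09e-07). FOXO1 averaged 9.59 ± 0.406 RPM in KD samples and 16.2 ± 1.47 RPM in SCR samples (SD, n = 3), a log2 fold change of -0.75 (adjusted p = 5.55e-06). DDIT3, which encodes the stress factor CHOP, had 21.4, 23.1 and 21.5 RPM in KD samples, against 14.4, 14.6 and 14.0 RPM in SCR samples, and rose by 0.62 (SE 0.0954, adjusted p = 1.34e-05). ATF3 rose by 0.57 (adjusted p = 0.000350). The pseudokinase gene TRIB3, a CHOP target, had a log2 fold change of -0.80 and the cell cycle factor E2F1 one of -0.20 (adjusted p = 7.49e-07 and 0.0307). The E2F1 call was lost without KD replicate 4 or 5 (adjusted p = 0.0700 and 0.149), without SCR replicate 4 or 5 (0.0797 and 0.103) and without a variance trend (0.0802). FOXO4, ATF4, JUN and CHAC1 did not pass, with log2 fold changes of 0.17, -0.11, -0.15 and -0.17.

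**Figure D4:**
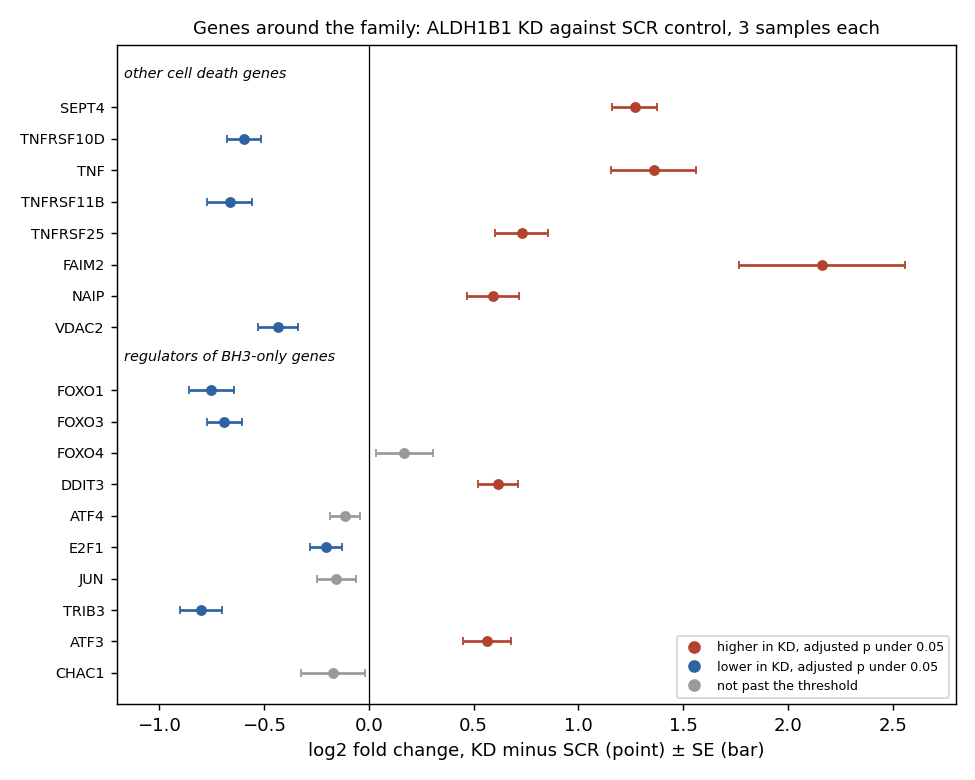
Log2 fold change (horizontal axis, KD minus SCR, bar for SE, 3 samples each) of the named cell death genes outside the family and of all 10 genes on the list headed regulators of BH3-only genes, not all of which need act on them. FAIM2 has the highest value, 2.16, with the widest bar (0.92 with a pseudocount of 1), and TRIB3 the lowest, -0.80.

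The members varied little between samples of a group. Their median coefficient of variation within a group was 5.92%, against 8.14% over all tested genes. The 2 medians were not matched for level. Of the 37 members 34 averaged 3.44 RPM or more, while tested genes reached down to 0.688 RPM. HRK, BCL2 and CASP10, each under 2.2 RPM in every sample, had the widest intervals. Under the alternatives tried, 10 of the 17 members that changed kept their call every time. These were BAK1, BOK, BID, BBC3, BCL2L11, CASP2, CASP4, HTRA2, CFLAR and TNFRSF1A, and the highest adjusted p that any alternative gave them ran between 0.00278 (BCL2L11) and 0.0255 (TNFRSF1A).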

How the data were processed

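RNA from 3 ALDH1B1 KD and 3 SCR samples of SW480 cells was sequenced from strand-specific libraries, per the labels' protocols. The submitters' processing notes name Partek, Bowtie and hg38; the sources used here do not give versions, gene models, counting or filters. The authors deposited log2 values of RPM (reads scaled to a library total of 1e+06) with 1e-04 added; this scale was inferred, since each column's lowest value is the log2 of that offset. RPM was obtained by undoing both.

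The table held 24549 lines and 22258 symbols, and 1192 symbols with several loci had identical values at each and were used once. Steps between low values put the depth at about 20320000 to 28540000 reads per sample. Only 77.9% to 80.4% of low values came within 0.02 of whole reads, so no count model was run. Genes averaging 0.688 RPM or more over the 6 samples, 15496 in number, were tested with limma 3.58.1 in R 4.3.3 (lmFit, eBayes with a trend, two-sided, no covariates, Benjamini-Hochberg over all tested genes, threshold 0.05). Rose and fell are used for genes past it. The test was also run on simulated data, and no statement here rests on the outcome. The exact permutation test was used for ALDH1B1.

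Neighbours of a gene are tested genes whose start lies within 5 Mb in the table. Table positions are not those of GRCh38, because the largest end on chromosome 1 is 249214146, so they are kept apart from the RefSeq promoter windows (GRCh38.p14). Alternatives covered the filter, the pseudocount (0.1 and 1), scaling, variance prior, left-out samples and the replicate block. The members and gene lists were chosen with earlier results of these data known. Every member is accounted for. From the longer list up to 8 genes are named, with the smallest adjusted p among those past the threshold with no overlap between groups. BIRC3, BIRC5 and BIRC6 are named besides, as inhibitors of apoptosis. Of marker lists, counts or summed levels are given, and the tested epithelial markers, PTPRC and CD68 are named. The list of 10 genes headed regulators of BH3-only genes is named whole. One further gene list is not reported here.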

Additional observations from a re-analysis of the deposited data

How the results depend on the processing

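The 2 counts of members stayed within 1.5 times under the filters, pseudocounts, scalings and robust prior tried. Without a variance trend 6 members fell, and 2255 of all tested genes did, against 2972 with it. Leaving out single samples gave 5 to 12 members that fell and 6 or 7 that rose. Over all tested genes 2025 to 3738 then fell and 2904 to 3455 rose. Across the 17 members that changed, no alternative turned a direction. Deviations from the group mean correlated across genes, within a shared replicate number, at -0.05, -0.06 and -0.13. Of 6 samples, 0 correlated best with their own number. From 3 samples per group, centred on their mean, this cannot show whether samples of the same number were handled together. With the replicate block 7 members rose and 7 fell, and of all tested genes 3179 rose and 2302 fell. BIK, CYCS and FADD then had limma adjusted p of 0.109, 0.0908 and 0.0513, and E2F1 0.119. Members short of the threshold changed sign as follows, and the cause was not tested. Quantile normalization gave log2 fold changes of -0.12 for BCL2, 0.0112 for BCL2L1, -0.23 for HRK, -0.18 for CASP10 and 0.0118 for XIAP. Nuclear totals gave 0.0215 for BCL2L12, 0.0123 for XIAP, 0.00959 for RIPK1 and 0.0174 for TNFRSF21. Leaving out single samples gave ranges of -0.0505 to 0.34 for BCL2, -0.0519 to 0.0614 for BAX, -0.37 to 0.30 for HRK, -0.0778 to 0.000135 for BCL2L12, -0.14 to 0.25 for CASP10, -0.0125 to 0.0911 for BIRC2, -0.10 to 0.00128 for RIPK1, -0.0988 to 0.0748 for TNFRSF10B and -0.0804 to 0.000552 for TNFRSF21. Precision is limited by 3 samples per group and, for HRK, BCL2 and CASP10, by as few as 12, 28 and 27 reads.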
